A study of Homo sapiens with 6 samples.

Results

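This comparison sets MV4-11 cells given venetoclax together with cyclosporine A (CSA) against MV4-11 cells given venetoclax alone, and asks what CSA adds once venetoclax is present. MV4-11 is a human acute myeloid leukemia line with an internal tandem duplication in FLT3 and a fusion of KMT2A with AFF1. All groups were treated for 24 h and carried no further genetic change by their labels: venetoclax at 100 nM, CSA at 2.5 µM, and both drugs, whose doses in the mixture are not stated separately. The 4 libraries of the comparison, 2 of the combination and 2 of venetoclax, were chosen by their titles from the 6 labelled RNA-seq libraries. The 2 CSA libraries enter the estimate of the spread and are quoted as a reference level. Of 20263 genes with counts deposited, 12690 had enough reads to be tested. No label says that replicates were grown as separate cultures, so each p-value reflects the spread between libraries, which may be technical.

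Venetoclax occupies the groove of BCL2 and frees the proteins that trigger mitochondrial apoptosis. CSA binds cyclophilins, and that complex blocks the phosphatase calcineurin, which otherwise lets NFAT factors enter the nucleus. The series title places the drug pair in PI3K, AKT and mTOR signalling, the route by which growth receptors such as FLT3 license protein synthesis. A second system that controls protein synthesis is the integrated stress response: kinases that sense missing amino acids, misfolded proteins, viral RNA or lack of heme phosphorylate the initiation factor eIF2, most translation slows, and the transcription factor ATF4 is made in larger amount. ATF4 and its partner CHOP then switch on amino acid uptake, amino acid synthesis and tRNA charging, and also genes such as DDIT4, SESN2 and TRIB3 that hold back mTOR complex 1 or AKT.

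Venetoclax replicate 2 differed from the remaining libraries and bears on every value below. Its share of counts from mitochondrially encoded genes was 41.5%, against 7.41% to 15.2% elsewhere, and 1522 of 12677 nuclear genes were more than 2-fold apart between the venetoclax replicates, compared with 288 for the combination and 219 for CSA. The difference between the venetoclax replicates also followed base composition. In the fifth of nuclear genes with the lowest GC percent, replicate 2 lay above replicate 1 by a median of 0.50 on the log2 scale, and in the fifth with the highest GC percent the median was -0.55. In the combination the same medians were 0.08 and -0.08. Total counts ran from 26567900 to 30738957 per library. The 15 marker genes of the line were all present, while the defining T cell genes CD3D, CD3E and CD3G and the erythroid genes HBB, HBA1 and HBA2 had no count in any of the 6 libraries. In bulk RNA, fewer cells of a kind and less RNA per cell cannot be told apart.

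**Figure D1:**
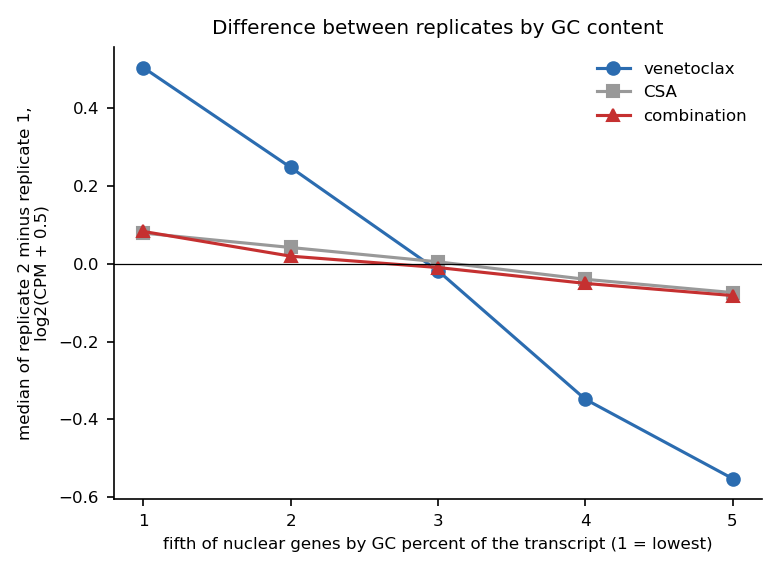
Median difference between replicate 2 and replicate 1, as log2 of CPM, the counts scaled to library size, plus 0.5, over 5 equal groups of nuclear genes ordered by the GC percent of their longest transcript, for venetoclax, CSA and the combination. The venetoclax line falls from 0.50 to -0.55, while the combination line runs from 0.08 to -0.08.

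With all libraries, edgeR's quasi-likelihood test with Benjamini-Hochberg adjustment called 0 of 12690 genes (0%) at 0.05, and the smallest adjusted p was 0.058, for SLC6A9. At an unadjusted p under 0.05 there were 1372 genes, or 10.8%. DESeq2 called 311 genes and limma-voom 0. Without venetoclax replicate 2, which leaves a lone venetoclax library that is assumed to vary like the other groups, edgeR called 30 of 12940 genes as higher (0.232%) and 19 as lower (0.147%). For 42 of these 49 genes the venetoclax libraries were both above or both below the combination. Without venetoclax replicate 1 the count was 3426. Words such as rose and fell are kept below for genes called without venetoclax replicate 2. Other genes are described by their values.

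A description that does not rest on the test is whether every combination library lies beyond every venetoclax library. Both combination libraries were above both venetoclax libraries for 2442 genes (19.2%) and below both for 2397 (18.9%). A gap of at least 2-fold in all 4 pairs of libraries was seen upward for 81 genes (0.638%) and downward for 37 (0.292%). Of these 118 genes, 117 had an unadjusted p under 0.05 with all libraries, and 31 were among the 49 called without venetoclax replicate 2. Levels are given as CPM scaled by the trimmed mean of M-values (TMM), in the order replicate 1, replicate 2.

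**Figure D2:**
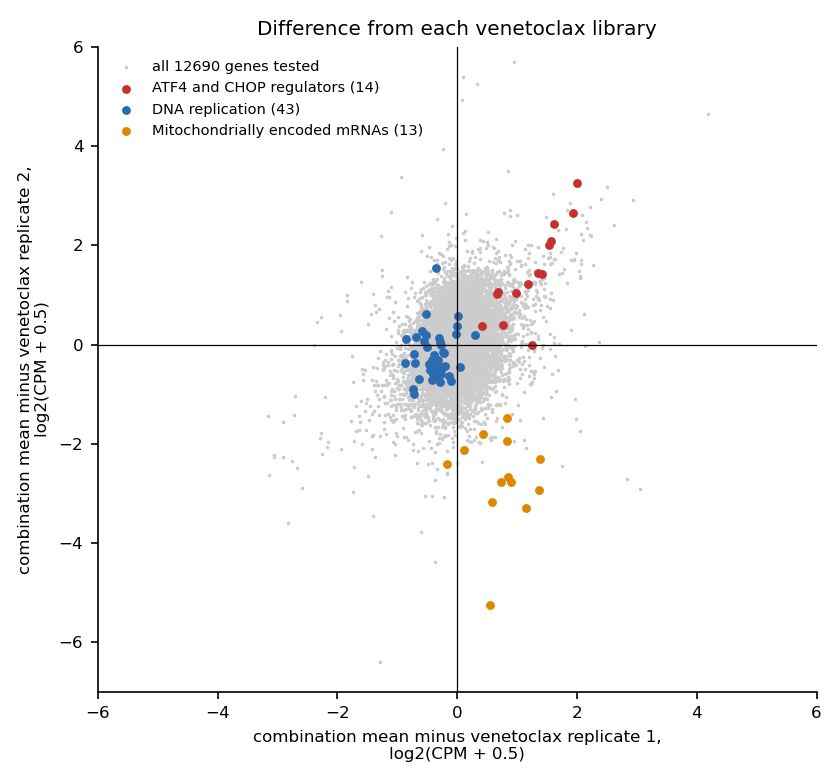
Difference of the combination mean from venetoclax replicate 1 (horizontal) and from venetoclax replicate 2 (vertical), as log2(CPM + 0.5), for the genes tested. Red ATF4 and CHOP regulators lie high on both axes apart from ATF5, which is level with replicate 2, blue replication genes lie mostly low on both, and orange mitochondrially encoded mRNAs are far below replicate 2 while most lie above replicate 1.

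The regulators of the ATF4 and CHOP branch were higher under the combination than under venetoclax alone. All 14 tested members had a positive log2 fold change, 13 were above both venetoclax libraries (19.2% over all genes), and 8 were at least 2-fold above in all 4 pairs (0.638% over all genes). Their median log2 fold change was 1.49, compared with -0.01 over all genes, and it was 1.46 without venetoclax replicate 2 and 1.52 without replicate 1. The median GC percent of their transcripts was 57.4, in the range where venetoclax replicate 2 was low, and the part of this in the values was not tested, while the median without that library is the one just given.

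ATF4 itself, the transcription factor at the head of the branch, was at 353 and 271 CPM under venetoclax and 563 and 568 under the combination. That is a log2 fold change of 0.86 (SE 0.18, adjusted p = 0.228 by edgeR's quasi-likelihood test). DDIT3, which encodes CHOP, was at 4.37 and 4.296 CPM under venetoclax and 13.02 and 11.9 under the combination. Both combination libraries lay above both venetoclax libraries for each of these genes, and the CSA libraries lay between them, at 479.8 and 483 CPM for ATF4 and 10.6 and 9.004 for DDIT3.

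CHAC1, an enzyme that degrades glutathione and a target of the branch, was at 3.19 and 1.75 CPM under venetoclax against 9.84 and 18.8 under the combination. The combination replicates themselves were far apart for this gene, and its log2 fold change was 2.51 (SE 0.43). JDP2, a repressor of the AP-1 family, was at 7.59 and 7.05 CPM against 19.98 and 20.1, with tight replicates in both groups (1.45, SE 0.22). PPP1R15A, the phosphatase subunit that removes the phosphate from eIF2, was at 59.4 and 56.5 CPM against 113 and 122 (1.02, SE 0.15). ATF5, a factor related to ATF4, is the member whose value turns on the venetoclax library: it was at 205 and 486 CPM under venetoclax and 457 and 514 under the combination. Without venetoclax replicate 2 it rose by 1.25 (SE 0.12, adjusted p = 0.0491 by edgeR), and with that library its value was 0.49 (SE 0.39).

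The kinases and phosphatase subunits that act above ATF4 had smaller values. Of 10 tested, 6 had positive and 4 negative values, with a median of 0.02, 4 were above both venetoclax libraries (19.2% over all genes), and 0 had an unadjusted p under 0.05 in edgeR's test with all libraries (10.8% over all genes).

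**Figure D3:**
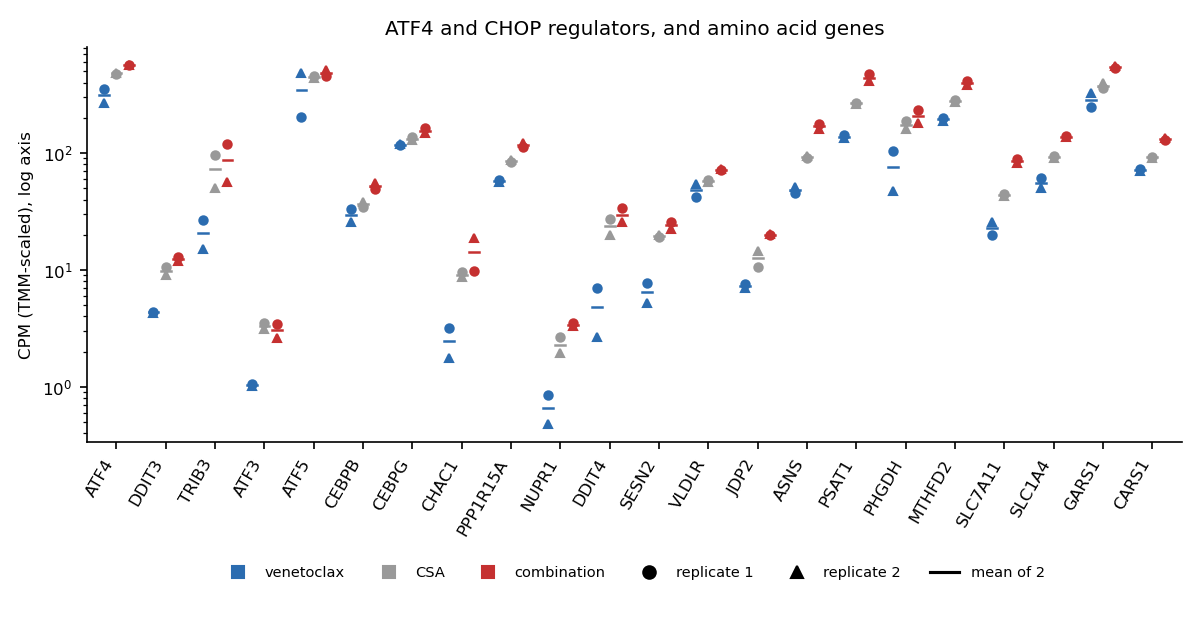
CPM on a log axis for the 14 ATF4 and CHOP regulators and for 8 amino acid genes in the 6 libraries, with circles for replicate 1, triangles for replicate 2 and bars for the mean. The combination lies highest for most genes, from ATF4 at 563 and 568 CPM against 353 and 271 to JDP2 at 19.98 and 20.1 against 7.59 and 7.05, and ATF5 shows the venetoclax replicates at 205 and 486.

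Genes that bring amino acids into the cell formed the next group. The median log2 fold change of 12 transporters was 0.89 with all libraries and 0.62 without venetoclax replicate 2. Of these, 10 had positive values, 9 were above both venetoclax libraries (19.2% over all genes) and 3 rose without venetoclax replicate 2 (SLC6A9, SLC7A11 and SLC1A4, against 0.232% over all genes). SLC6A9 imports glycine, and its 6 libraries fell into separate steps of 0.678 and 0.6895 CPM (venetoclax), 5.75 and 5.702 (CSA) and 8.46 and 8.51 (combination). Among tested genes with a symbol it had the largest of the smallest pair differences, 2.91 on the log2 scale. SLC1A4, which carries alanine, serine and cysteine, was at 61.001 and 49.9 CPM against 139.6 and 137, and it rose by 1.18 without venetoclax replicate 2 (SE 0.11, adjusted p = 0.0491 by edgeR). SLC38A1, a glutamine carrier, was at 55.7 and 70.6 CPM against 117 and 112 (0.86, SE 0.18). Values were uneven within the list. SLC7A5, the large neutral amino acid exchanger, was at 188 and 283 CPM under venetoclax and 304 and 802 under the combination, and the CSA replicates were also far apart at 273 and 648. SLC7A6, a further exchanger, was lower, at 52.4 and 129 CPM against 41.5 and 39.5, so its value of -1.16 (SE 0.41) came down to -0.37 without venetoclax replicate 2.

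Amino acid synthesis showed the same direction in a more uneven way. Of 10 serine and one-carbon enzymes 8 had positive values (median 0.67, 0.48 without venetoclax replicate 2, 0.97 without replicate 1), and of 13 enzymes of asparagine, proline and cysteine metabolism 9 did (0.61, 0.40 and 1.02). In the serine list PSAT1 and ALDH1L2 rose without venetoclax replicate 2, and in the other list ASNS did. ALDH1L2, a mitochondrial folate enzyme, was at 66.1 and 99.1 CPM under venetoclax and 213 and 261 under the combination (1.85, SE 0.17, adjusted p = 0.0491 without venetoclax replicate 2 by edgeR). PHGDH, the first enzyme of serine synthesis, was at 104 and 47.8 CPM against 232 and 181. Here the venetoclax replicates were more than 2-fold apart, and the value moved from 1.44 (SE 0.38) to 0.99 (SE 0.20) without replicate 2. CTH, which makes cysteine from cystathionine, was at 2.203 and 3.77 CPM against 9.18 and 12.3, and CBS, the step before it, at 12.5 and 6.79 against 30.6 and 27.4. Enzymes of cytosolic folate use were not part of this: MTHFD1 was at -0.28 (SE 0.20) and SHMT1 at -0.19 (SE 0.21).

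tRNA synthetases, which load amino acids onto tRNAs, were higher by less. Of 20 cytosolic enzymes 17 had positive values, 12 were above both venetoclax libraries (19.2% over all genes) and 0 were 2-fold above in all pairs (0.638% over all genes), with a median of 0.29 and of 0.48 without venetoclax replicate 2. GARS1, for glycine, was at 248 and 325 CPM under venetoclax and 535 and 552 under the combination, and it rose by 1.14 without venetoclax replicate 2 (SE 0.11, adjusted p = 0.0491 by edgeR). WARS1, for tryptophan, was at 118 and 165 CPM against 334 and 319 (1.21, SE 0.23), and CARS1, for cysteine, at 73.03 and 70.8 against 129 and 135 (0.87, SE 0.14). The groups did not overlap for these genes. KARS1, for lysine, was at 0.00 (SE 0.17) and QARS1, for glutamine, at 0.00 (SE 0.21).

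Promoters are shown because ATF4 acts through a short element, whose core was searched as TGATGNAA on both strands in RefSeq promoters of build GRCh38.p14, from 250 bases before to 50 after each start site. It was present for 4 of the 14 ATF4 and CHOP regulators with a promoter (28.6%). For genes of amino acid transport, synthesis and tRNA charging it was 15 of 44 (34.1%). The list shares start from all 15 and 59 listed genes, tested or not, so these 14 need not be the 14 tested above. Over tested genes with a promoter the core was present for 276 of 10132 (2.72%). Among genes at least 2-fold above in all pairs it was present for 9 of 61 (14.8%), and among those 2-fold below for 2 of 31 (6.45%). A match describes the letters and is not evidence of binding. The 250 bases before the start site follow for 4 of the genes described above, with the match in capitals.
ASNS: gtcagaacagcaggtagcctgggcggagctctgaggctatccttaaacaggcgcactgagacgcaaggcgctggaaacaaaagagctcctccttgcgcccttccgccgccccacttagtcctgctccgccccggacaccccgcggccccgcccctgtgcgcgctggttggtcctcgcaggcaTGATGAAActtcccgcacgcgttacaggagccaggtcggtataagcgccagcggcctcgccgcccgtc
JDP2: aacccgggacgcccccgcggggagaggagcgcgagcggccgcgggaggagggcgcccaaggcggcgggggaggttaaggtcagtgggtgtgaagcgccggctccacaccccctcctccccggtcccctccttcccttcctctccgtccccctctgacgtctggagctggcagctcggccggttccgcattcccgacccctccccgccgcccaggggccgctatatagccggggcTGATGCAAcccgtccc
GARS1: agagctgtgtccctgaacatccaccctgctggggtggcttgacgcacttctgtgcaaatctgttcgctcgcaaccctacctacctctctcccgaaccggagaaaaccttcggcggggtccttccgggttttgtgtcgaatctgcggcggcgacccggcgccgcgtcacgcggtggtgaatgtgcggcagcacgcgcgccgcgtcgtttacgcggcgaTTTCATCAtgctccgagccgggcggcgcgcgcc
CHAC1: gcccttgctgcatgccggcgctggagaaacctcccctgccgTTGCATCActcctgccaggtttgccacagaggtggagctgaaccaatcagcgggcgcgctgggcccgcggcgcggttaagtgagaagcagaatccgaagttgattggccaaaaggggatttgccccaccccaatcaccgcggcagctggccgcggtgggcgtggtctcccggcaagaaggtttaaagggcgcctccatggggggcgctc
These are chr7:97872409-97872658 on the minus strand for ASNS, chr14:75427772-75428021 on the plus strand for JDP2, chr7:30594628-30594877 on the plus strand for GARS1 and chr15:40953221-40953470 on the plus strand for CHAC1. The match starts 68 bases before the start site in ASNS, 16 in JDP2, 33 in GARS1 and 209 in CHAC1, and in GARS1 and CHAC1 it reads on the opposite strand.

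The brakes on mTOR complex 1 divided into those that were higher and those that were lower. Of 10 tested, 7 had positive values and 3 negative, with a median of 0.49 (0.40 without venetoclax replicate 2). DDIT4, which activates the inhibitory TSC complex, was at 7.05 and 2.65 CPM under venetoclax, 27.4 and 19.96 under CSA, and 34.1 and 25.6 under the combination (2.60, SE 0.49). SESN2, a leucine sensor that restrains the complex, was at 7.79 and 5.25 CPM against 25.7 and 22.6 (1.88, SE 0.25). TRIB3, a pseudokinase that binds AKT, was at 26.7 and 14.96 CPM against 119 and 56.7, with the replicates apart in both groups. These genes were above both venetoclax libraries, by at least 2-fold in each pair. SESN3, a relative of SESN2, went the other way, at 15.3 and 28.9 CPM under venetoclax and 5.28 and 5.92 under the combination (-1.97, SE 0.35). DDIT4, SESN2 and TRIB3 are also among the 14 regulators counted above.

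Genes of the PI3K, AKT and mTOR pathway were close to level by their medians. Of 13 PI3K genes and opposing phosphatases 5 had positive and 8 negative values (median -0.10), and of 18 genes of AKT, the mTOR complexes and their effectors 8 and 10 (median -0.06). Scaled by library size alone these medians turned positive, at 0.13 and 0.23, both under the 0.26 of all genes. The PI3K list held 1 gene above both venetoclax libraries and 5 below both. In the AKT and mTOR list these counts were 4 and 5, against 19.2% and 18.9% over all genes. MTOR was at 159.9 and 122 CPM under venetoclax and 152 and 135 under the combination, and AKT1 at 130.3 and 73.8 against 117 and 144. RPTOR, the scaffold of mTOR complex 1, had a log2 fold change of 0.05 (SE 0.18). Among the members that lay apart, PIK3CG, the catalytic subunit gamma of PI3K, was at 53.5 and 62.7 CPM against 27.5 and 24.6 (-1.16, SE 0.17). PIK3R1, the p85 alpha regulatory subunit, was at 77.6 and 113 CPM against 44.5 and 49.2 (-1.03, SE 0.22). Both combination libraries were below both venetoclax libraries for these 2 genes. MLST8, shared by both mTOR complexes, was at 68.2 and 50.1 CPM against 107 and 107 (0.86, SE 0.19). RICTOR, of mTOR complex 2, was at 43.6 and 48.1 CPM against 30.2 and 13.2, with the combination replicates more than 2-fold apart. These are mRNA levels and hold no measure of kinase activity.

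GRB10, an adaptor that dampens insulin receptor signalling, was at 35.9 and 36.6 CPM under venetoclax and 85.9 and 79.3 under the combination (1.21, SE 0.12, adjusted p = 0.0491 without venetoclax replicate 2 by edgeR). RPS6KA2, a ribosomal S6 kinase of the ERK route, was at 6.61 and 2.12 CPM against 20.3 and 21.7 (1.67, SE 0.17, adjusted p = 0.0491 in the same fit by edgeR). Its venetoclax replicates were more than 2-fold apart and both lay below the combination. FLT3, the mutant receptor of the line, was at 838 and 926 CPM against 894 and 861 (-0.01, SE 0.15).

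The genes farthest above venetoclax, by the smallest of the 4 library differences, included others outside these lists. ADM2, a peptide hormone, was at 4.98 and 3.29 CPM under venetoclax, 18.3 and 16.3 under CSA and 28.5 and 28.4 under the combination, and it rose by 2.52 (SE 0.18, adjusted p = 0.0405 without venetoclax replicate 2 by edgeR). NLRP12, a NOD-like receptor of myeloid cells that restrains inflammatory signalling, was at 1.97 and 1.17 CPM against 11.1 and 10.8 and rose by 2.48 (SE 0.20, adjusted p = 0.048 by edgeR). Of 15 NOD-like and Toll-like receptors tested, NLRP12 included, 7 had positive and 8 negative values. TLR4, the receptor for bacterial lipopolysaccharide, was at 24.3 and 28.1 CPM against 12.3 and 11.6 (-1.13, SE 0.18).

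SEMA6B, a semaphorin of the cell surface, was at 26.4 and 13.3 CPM under venetoclax and 103 and 95.05 under the combination, while CSA alone gave 32.95 and 25.8. The combination was therefore above all 4 single-agent libraries for this gene. CHI3L1, a secreted glycoprotein of macrophages, was at 150.1 and 160.3 CPM against 371 and 414, with CSA at 169 and 176, and it rose by 1.39 (SE 0.12, adjusted p = 0.048 without venetoclax replicate 2 by edgeR). GAS7, a regulator of the actin skeleton, was at 26.8 and 31.3 CPM against 103 and 107, with CSA between at 53.9 and 48.9. ASS1, which makes the arginine precursor argininosuccinate, was at 103 and 60.1 CPM against 248 and 237, with CSA near the combination at 227 and 217.

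The widest separation of all belonged to a locus that does not stand alone. ENSG00000269693, annotated by GENCODE 29 as a protein-coding gene on chromosome 19 from 12525720 to 12580975 on the minus strand, was at 0.339 and 0.106 CPM under venetoclax and 12.2 and 17.7 under the combination. It spans parts of ZNF564 and ZNF490, zinc finger genes on the same strand, which were lower under the combination (ZNF564 at 11.1 and 13.3 CPM against 7.92 and 3.78, ZNF490 at 7.96 and 11.5 against 4.65 and 4.14). The 3 genes added together, a sum chosen after the values were seen, gave 19.4 and 24.9 CPM under venetoclax and 24.8 and 25.7 under the combination. The sums overlapped between the groups, unlike the single entry. How reads were divided between overlapping genes is not stated by the labels or notes. ENSG00000284461, which spans KCTD7 and RABGEF1, was at 2.95 and 1.38 CPM against 13.3 and 10.4 by itself, and the sum of the 3 genes was at 31.9 and 30.97 against 31.7 and 28.2. For DDX47, an RNA helicase gene called as lower without venetoclax replicate 2, the entry was at 44.7 and 13.3 CPM against 5.43 and 3.78, and with the overlapping APOLD1 the sum was 86.7 and 94.4 against 90.2 and 101.1. ENSG00000284292, called as lower in the same fit, was at 21.05 and 12.04 CPM against 2.46 and 1.78, and with the overlapping ARPC1A and ARPC1B the sum was 324 and 209 against 373 and 309. MS4A7, called as higher, was at 5.32 and 17.3 CPM against 20.3 and 22.2, and with the overlapping MS4A14 at 12.4 and 42.5 against 31.5 and 41.1. The sums of all 5 entries overlapped between the groups, and these entries are treated as uncertain. For ENSG00000284292 the sum is mostly ARPC1A and ARPC1B, and ARPC1B alone was at 231 and 126 CPM under venetoclax. MS4A14 was likewise far apart between the venetoclax replicates, at 7.05 and 25.2 CPM. In these cases the overlap of the sums cannot decide about the single entry. Of the 56 genes named by separation or by call, 11 overlap another counted gene on their strand. The sum kept the direction for ALDOC (108 and 64.2 against 46.8 and 52.4 CPM), which is described elsewhere in the text.

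**Figure D4:**
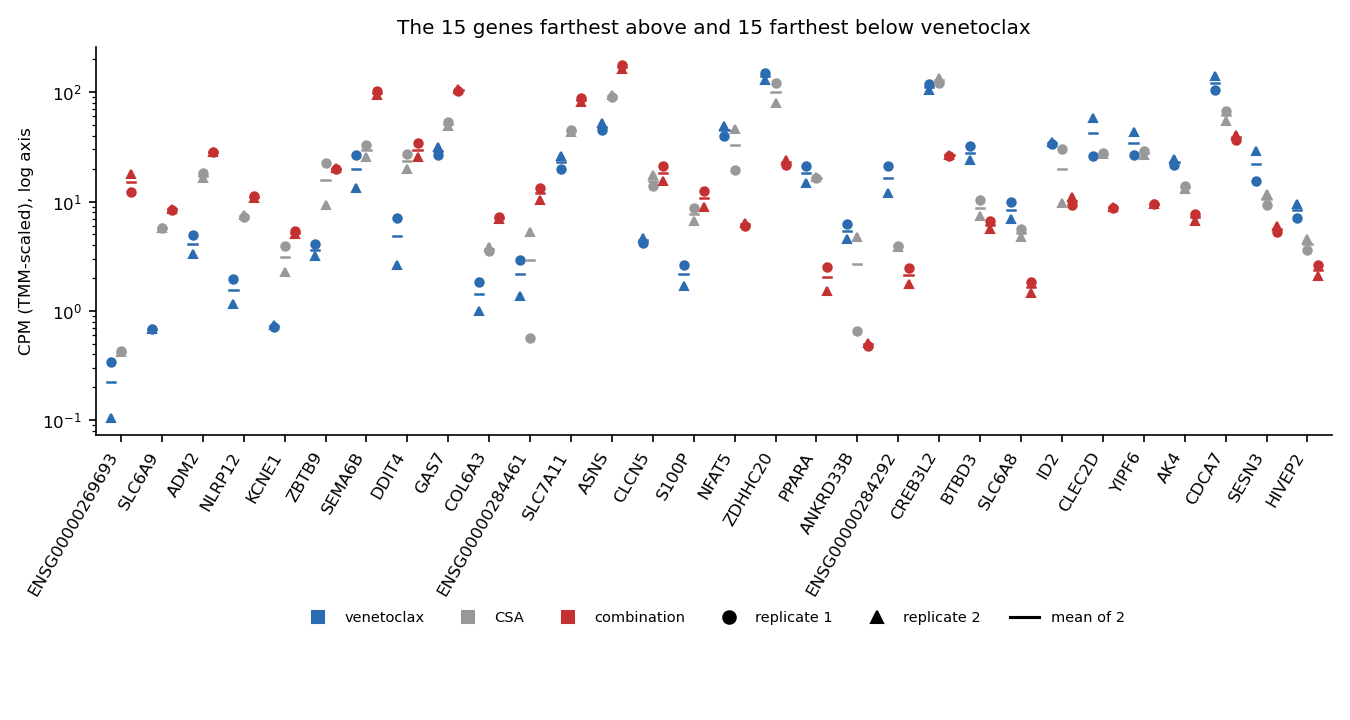
CPM on a log axis in the 6 libraries for the 15 genes farthest above and the 15 farthest below venetoclax by the smallest of the 4 library differences, among genes with a mean of at least 5 CPM in the higher group, which is how they were chosen. CREB3L2, PPARA, CLEC2D and YIPF6 show CSA close to venetoclax and the combination alone low, for example CREB3L2 at 26.3 and 26.6 CPM against 105 to 136 in the other 4 libraries.

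Among the genes that lay below venetoclax, a set was low in the combination alone, with CSA at the level of venetoclax. CREB3L2, a transcription factor anchored in the ER membrane, was at 119.6 and 105 CPM under venetoclax, 122 and 136 under CSA, and 26.3 and 26.6 under the combination. It fell by 2.17 (SE 0.11, adjusted p = 0.0405 without venetoclax replicate 2 by edgeR). PPARA, the nuclear receptor that switches on fatty acid oxidation, was at 21.3 and 14.8 CPM, 16.4 and 16.6, and 2.52 and 1.53 in the same order. UBE2Z, a ubiquitin-conjugating enzyme, was at 105 and 77.01, 112 and 108, and 31.6 and 33.2 CPM. These combination libraries lay at least 2-fold below each of the other 4 libraries.

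ZDHHC20, a palmitoyltransferase of the plasma membrane, was at 149 and 131 CPM under venetoclax, 122 and 78.9 under CSA, and 21.7 and 23.99 under the combination. Both CSA libraries lay below both venetoclax libraries and far above the combination for this gene, and it fell by 2.70 (SE 0.26, adjusted p = 0.0491 without venetoclax replicate 2 by edgeR). MDM2, the ubiquitin ligase of p53, was at 64.2 and 28.7 CPM under venetoclax, 58.8 and 57.9 under CSA, and 12.5 and 14.6 under the combination. Of 18 p53 targets tested, MDM2 included, 13 had positive values, and the median was 0.13. CLEC2D, a lectin that is a ligand of a natural killer cell receptor, was at 25.9 and 58.1 CPM, 27.8 and 27.1, and 8.79 and 8.98. YIPF6, a Golgi membrane protein, was at 26.4 and 42.8, 29.1 and 26.8, and 9.45 and 9.52 CPM. In both of these the venetoclax replicates differed and both lay above the combination.

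A further set was low under CSA too. SLC6A8, the creatine importer, was at 9.86 and 6.895 CPM under venetoclax, 5.59 and 4.74 under CSA, and 1.83 and 1.45 under the combination. BTBD3, a BTB-domain protein, was at 32.1 and 23.97, 10.2 and 7.35, and 6.66 and 5.67 CPM. CDCA7, a gene of dividing cells, was at 104 and 139.8, 67.9 and 54.8, and 36.8 and 40.5 CPM. Each of these was stepped in the order venetoclax, CSA, combination.

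NFAT5, the osmotic stress member of the NFAT family, which lacks the calcineurin-binding region of its relatives, was at 40.2 and 49.3 CPM under venetoclax and 6.03 and 6.43 under the combination (-2.84, SE 0.43). The CSA replicates were 19.6 and 45.8, more than 2-fold apart. ID2, an inhibitor of bHLH factors, also had CSA replicates more than 2-fold apart, but in the opposite order. It was at 33.7 and 35.1 CPM under venetoclax, 30.1 and 9.69 under CSA, and 9.36 and 10.9 under the combination. The calcineurin-regulated members were nearer to level: NFATC3 was at 111 and 114 CPM against 65.4 and 79.6 (-0.63, SE 0.21), and RCAN1, a feedback inhibitor of calcineurin and itself an NFAT target, at 48.1 and 35.96 against 39.03 and 33.5 (-0.21, SE 0.20). Of 10 calcineurin, NFAT and RCAN genes 8 had negative values, with a median of -0.13 that was -0.01 without venetoclax replicate 2. With library size scaling it was 0.16, against 0.26 for all genes. The cyclophilins, to which CSA binds, had a median of 0.01 over 14 genes, with PPIA at 1123 and 774 CPM against 1069 and 967.

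Most hypoxia-responsive genes had negative values. Of 15 tested, 13 did, 9 were below both venetoclax libraries (18.9% over all genes), and the median was -0.60, or -0.35 without venetoclax replicate 2. LDHA, the lactate dehydrogenase subunit of glycolytic cells, was counted with the glycolysis genes below and not among these 15. It was at 739 and 639 CPM under venetoclax, 668 and 636 under CSA, and 277 and 232 under the combination. LDHA fell by 1.53 (SE 0.13) without venetoclax replicate 2. NDRG1, a stress and hypoxia gene, was at 148 and 129, 103 and 108, and 62.2 and 62.9 CPM. It fell by 1.23 (SE 0.10, adjusted p = 0.048 by edgeR). BNIP3L, a mitophagy receptor, was at 90.4 and 113 CPM against 51.97 and 52.6 (-0.96, SE 0.17). Of the 2 members with positive values, VEGFA, the angiogenic factor, was at 24.4 and 24.9 CPM under venetoclax, 32.4 and 35.4 under CSA, and 63.7 and 57.03 under the combination (1.29, SE 0.16). It is a known ATF4 target as well. ALDOC, an aldolase also counted with the glycolysis genes, fell by 1.42 without venetoclax replicate 2 (SE 0.14). Its venetoclax level, however, was 91.03 and 46.4 CPM against 31.2 and 36.9. Of 25 glycolysis genes 18 had negative values. Their median moved from -0.12 to -0.33 without venetoclax replicate 2 and to 0.12 without replicate 1. It was 0.10 with library size scaling, against 0.26 for all genes.

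Fatty acid genes were divided. CPT1A, which admits fatty acids to mitochondria, was at 170.2 and 151 CPM under venetoclax and 328 and 309.7 under the combination (0.99, SE 0.15). PLIN2, the coat of lipid droplets, was at 26.1 and 31.03 CPM against 55.6 and 55.9 (0.97, SE 0.17). Both are textbook PPAR targets and lay above both venetoclax libraries, while PPARA lay below, and over the 19 genes of this list 14 had positive values with a median of 0.13.

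Most genes of DNA replication were lower, by a small amount. Of 43 tested, 38 had negative values and 27 were below both venetoclax libraries (18.9% over all genes), with a median of -0.37 that was also -0.37 without either venetoclax library. None was 2-fold below in all pairs. TYMS, thymidylate synthase, was at 97.2 and 108 CPM against 56.98 and 58.4, and POLA1, the catalytic subunit of the priming polymerase, at 72.9 and 89.8 against 54.7 and 54.1 (-0.58, SE 0.17). The MCM helicase genes showed how much turns on the venetoclax library. MCM3 was at -0.44 (SE 0.14) and -0.47 without venetoclax replicate 2, whereas MCM7 was at -0.21 (SE 0.30) and -0.58. When counts were scaled by library size alone the median of the list was -0.08, against 0.26 for all genes, so the distance from all genes stayed.

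Mitosis genes were lower as well, in 30 of 33, with 24 below both venetoclax libraries (18.9% over all genes). Their median moved more, from -0.46 to -0.28 without venetoclax replicate 2 and to -0.57 without replicate 1. Their median GC percent was 43.2, in the range where venetoclax replicate 2 was high. TOP2A, the topoisomerase of chromosome separation, was at 526 and 809.6 CPM under venetoclax and 388 and 381 under the combination, so its value of -0.80 (SE 0.23) became -0.45 without venetoclax replicate 2.

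Replication promoters were searched for TTTNGCGC, a core of the site of E2F factors, which switch on S-phase genes. It was present for 14 of 36 replication genes with a promoter (38.9%), for 1 of 27 mitosis genes (3.7%), and for 375 of 10132 tested genes (3.7%). The core TGATGNAA was found in 0 of the 36. The 250 bases before the start site of MCM6, a helicase subunit, and POLA1 are shown as examples of this promoter type, with matches in capitals.
MCM6: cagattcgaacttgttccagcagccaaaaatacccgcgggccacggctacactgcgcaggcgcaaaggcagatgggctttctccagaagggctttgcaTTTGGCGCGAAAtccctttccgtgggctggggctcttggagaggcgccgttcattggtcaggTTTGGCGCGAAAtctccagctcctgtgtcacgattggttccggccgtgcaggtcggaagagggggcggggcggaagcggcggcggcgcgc
POLA1: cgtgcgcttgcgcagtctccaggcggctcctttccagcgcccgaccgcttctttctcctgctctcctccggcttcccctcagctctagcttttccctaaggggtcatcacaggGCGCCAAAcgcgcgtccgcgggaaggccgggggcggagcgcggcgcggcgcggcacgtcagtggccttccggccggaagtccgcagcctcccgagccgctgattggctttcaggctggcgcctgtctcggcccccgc
These are chr2:135876444-135876693 on the minus strand for MCM6 and chrX:24693668-24693917 on the plus strand for POLA1. MCM6 holds 4 matches, which overlap in pairs on opposite strands and start 152 bases before the start site, and its value was -0.20 (SE 0.14).

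Survival and effector genes of the BCL2 family were mostly level. BCL2, the target of venetoclax, was at 74.3 and 79.6 CPM under venetoclax and 60.8 and 53.8 under the combination (-0.43, SE 0.15, adjusted p = 0.42 by edgeR). MCL1, a survival protein on which resistant cells often rely, was at 184 and 202 against 179.9 and 179 CPM, and BCL2L1 had a log2 fold change of 0.07 (SE 0.16). Of 8 survival and effector genes 5 had positive values, with a median of 0.08. The 7 BH3-only genes tested were less level: 5 had positive values, with a median of 0.57. That median was 0.20 without venetoclax replicate 2 and 0.85 without replicate 1. Among BH3-only genes, BCL2L11, which encodes BIM, was at 13.8 and 18.7 CPM under venetoclax, 10.1 and 6.63 under CSA, and 59.6 and 21.2 under the combination. Both combination libraries were above the rest, but they were more than 2-fold apart, and the value was 1.32 (SE 0.52). BMF, a related BH3-only gene, was at 37.8 and 29.97 CPM against 51.04 and 57.1 (0.67, SE 0.19). PMAIP1, a further BH3-only gene, was at 13.8 and 25.4 CPM against 15.3 and 16.5 (-0.30, SE 0.31). BCL2L2 was alike in the combination and venetoclax, at 27.9 and 22.9 against 24.8 and 16.4 CPM, and stood at 2.74 and 2.28 under CSA alone. This gene was not among those checked for overlap with another counted gene.

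Some lists cannot be read without choosing a venetoclax library. The KMT2A-fusion programme, genes kept on by the fusion, had a median of -0.36. It was 0.08 without venetoclax replicate 2 and -0.65 without replicate 1. With library size scaling the programme's median was 0.01, against 0.26 for all genes. HOXA9 and MEIS1, its best known members, were at 0.10 (SE 0.31) and -0.08 (SE 0.15). Cytosolic ribosomal protein genes had positive values in 33 of 35, but the median of 0.30 was 0.04 without venetoclax replicate 2. Mitochondrially encoded mRNAs had a median of -1.66 with all libraries and 0.91 without venetoclax replicate 2. MT-ATP6, a subunit of ATP synthase, was at 1218 and 67948 CPM under venetoclax and at 1233 and 2592 under the combination.

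**Figure D5:**
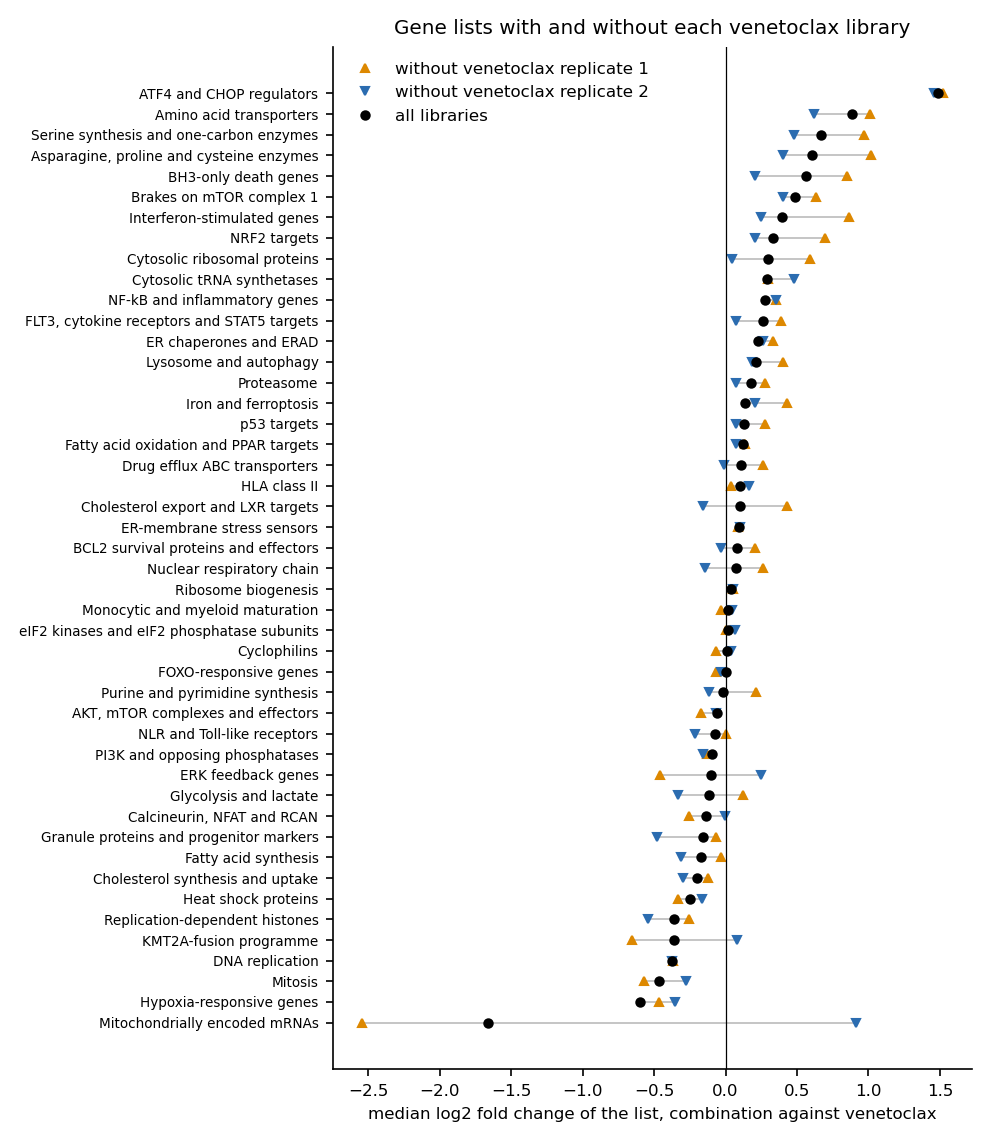
Median log2 fold change of the combination against venetoclax for each of the 46 gene lists, with all libraries (circles) and without venetoclax replicate 1 (upward triangles) or replicate 2 (downward triangles). The ATF4 and CHOP regulators stay between 1.46 and 1.52 and DNA replication at -0.37, while the mitochondrially encoded mRNAs run from -2.54 to 0.91.

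A few genes called without venetoclax replicate 2 had that library on the other side of the combination. FMC1-LUC7L2 was at 0 and 30.3 CPM under venetoclax and 4.14 and 3.16 under the combination, TGOLN2 at 73.2 and 446 against 250.1 and 214, ZNF546 at 0.441 and 10.1 against 3.3004 and 3.16, and PSME3 at 77.6 and 358 against 228 and 275. The FMC1-LUC7L2 entry reads through FMC1 and LUC7L2, and the sum of the 3 genes was 213 and 387 CPM against 194 and 237, so this entry is uncertain as well. For these 4 genes the combination lay between the venetoclax replicates, so the direction of the difference depends on which venetoclax library is used. ZNF548 was at 19.01 and 4.72 CPM under venetoclax and 6.24 and 6.72 under the combination, with the replicates in the opposite order.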

How the data were processed

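The authors deposited whole-number counts per Ensembl gene, and the columns of the 6 labelled libraries were used. A further 2 columns match no label here and were not used, so no untreated cells enter. The submitters' processing notes name STAR, RSEM, DESeq2 and hg38, in no stated role, and versions and strand setting are not given in the sources used here. Per the labels' protocols RNA was extracted with Trizol, and KAPA RNA HyperPrep libraries were read as pairs. Between 64.8% and 66.7% of deposited counts from 1 to 20 were even, so low counts may hold more error than a count model assumes.

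Genes passing filterByExpr (12690) were scaled by TMM. The two-sided quasi-likelihood test of edgeR 4.0.16 (glmQLFit with robust estimation, then glmQLFTest, under R 4.3.3) had 3 residual degrees of freedom in 1 fit of the 6 libraries by group, with Benjamini-Hochberg adjustment and a threshold of 0.05. The fit without venetoclax replicate 2 has 2 residual degrees of freedom. SE is the absolute log2 fold change divided by the square root of the F value of the quasi-likelihood test. Differences between libraries use log2(CPM + 0.5). With library size scaling the log2 fold changes of all genes had a median of 0.26. Symbols matched 20148 of the 20263 identifiers, and coordinates of genes and transcripts are from GENCODE 29. The fits were also run on simulated counts with known changes, and the outcome of that run is not given here.

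Named genes were up to 15 per direction with the widest gap between libraries and a mean of at least 5 CPM, up to 12 per direction called without venetoclax replicate 2 with both venetoclax libraries on one side of the combination, up to 4 per list with the smallest p, a set of drug and pathway genes, and up to 5 called genes whose venetoclax replicate 2 disagreed. Members of the 46 lists named beyond this, and the sums over overlapping genes, were picked after values were seen. The comparison, lists and genes were chosen with earlier results of these data known. Alternatives were DESeq2 1.42.0, limma-voom (limma 3.58.1), other scaling and filters, fewer libraries, a replicate block and removal of mitochondrially encoded genes.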

Additional observations from a re-analysis of the deposited data

How the results depend on the processing

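With all libraries the count of called genes stayed at 0 under limma-voom, library size scaling, a fit of only the venetoclax and combination libraries and removal of mitochondrially encoded genes. It was 311 with DESeq2 and 15 without a low count filter, and with 1 library left out it ranged from 0 to 3426. Without venetoclax replicate 2 the count of 49 became 490 with DESeq2, 30 with library size scaling, 118 without a low count filter and 22 with only the venetoclax and combination libraries. It was also 22 over the genes tested with all 6 libraries, an alternative added after seeing the data, and with a further combination library left out it ranged from 168 to 180. The replicate block gave 0 calls with all libraries and 229 without venetoclax replicate 2. Replicates share only a number by their labels, and the correlations of same-numbered deviations were 0.23 to 0.34. Genes at least 2-fold higher in all pairs, 81, became 48 with a pseudocount of 2 CPM and 247 at 1.5-fold, and ranged from 131 to 500 with 1 library left out, where only 2 pairs remain. Those at least 2-fold lower, 37, became 22 with library size scaling, 22 with a pseudocount of 2 CPM and 168 at 1.5-fold, and ranged from 85 to 448 with 1 library left out. The cause of these shifts was not tested, apart from the smaller number of pairs. Without venetoclax replicate 2, 3 genes reversed: FMC1-LUC7L2 to 9.82, TGOLN2 to 1.67 and ZNF546 to 2.87, which were -3.05, -0.94 and -1.64 without venetoclax replicate 1. The value of 9.82 is set against a library with no count, is not a bound, and belongs to an entry that overlaps FMC1 and LUC7L2. Of the other values of named genes, 1571 kept sign and side of the threshold, 278 passed it with the same sign, and 31 took the other sign by more than 1 SE and 17 by less, none of these called. For list medians 234 settings moved by less than 1 SD between replicates and 87 by more. With 2 libraries per group, and 1 venetoclax library that differs in mitochondrial share and GC trend, sizes are firmer where both venetoclax libraries are given than where only a fitted value is.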
